A study of Mus musculus with 12 samples.

Results

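The genes described here make or remove reactive oxygen and nitrogen species. They are Cybb, Cyba, Ncf1, Ncf4 and Rac2 of the phagocyte NADPH oxidase, Nos2, the inducible nitric oxide synthase, and Sod2, the mitochondrial superoxide dismutase. All 7 were found by symbol among the 40853 symbols of the deposited count tables, and their levels were compared between sorted microglia and astrocytes and between genotypes. The rule that lists them names the genes and uses no threshold on a measured value.

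The study sorted both glial cell types by fluorescence-activated cell sorting from whole brains of mice aged 8 to 9 weeks. The mice were wild type (WT) or labelled knockout (KO) for Kpna4, the gene of importin α4, an adaptor for nuclear import. All animals of both genotypes were injected into the peritoneum with lipopolysaccharide (LPS), a bacterial product that provokes inflammation, at 1 mg/kg and 20 h before dissection. Uninjected mice were not analysed here, so no value below is a response to LPS. There were 4 groups of 3 libraries, 1 group for each cell type and genotype, and each of 6 animals gave 1 library of each cell type. How the knockout was made, which part of Kpna4 it lacks and which antibodies the sort used were not in the labels.

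The phagocyte oxidase is a membrane enzyme that passes electrons from NADPH in the cytosol to oxygen on the far side of the membrane, producing superoxide. Cybb encodes its catalytic subunit and Cyba the partner that stabilizes it, while Ncf1 and Ncf4 encode cytosolic subunits that join them when the cell is stimulated, together with a Rac GTPase. In the brain the complex is best known from microglia. Nos2 produces nitric oxide, which reacts with superoxide to give peroxynitrite, and Sod2 converts superoxide in mitochondria to hydrogen peroxide.

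Promoter sequences were available for Cybb, Cyba, Ncf1 and Sod2, 4 of the 7 genes, and are shown because the first 3 were higher in microglia and Sod2 was higher in astrocytes. Each runs 5′ to 3′ on the gene's strand from 250 bases before to 50 after a RefSeq start on build GRCm38.p6, an older build than that of the counts. Capitals mark 3 of the motifs that were searched on both strands: GAAA, any 2 bases and GAAA, found in interferon-stimulated response elements; GAGGAA, the core bound by PU.1; and GGGCGG, bound by Sp1.
Cybb, chrX:9469275-9469574, minus strand: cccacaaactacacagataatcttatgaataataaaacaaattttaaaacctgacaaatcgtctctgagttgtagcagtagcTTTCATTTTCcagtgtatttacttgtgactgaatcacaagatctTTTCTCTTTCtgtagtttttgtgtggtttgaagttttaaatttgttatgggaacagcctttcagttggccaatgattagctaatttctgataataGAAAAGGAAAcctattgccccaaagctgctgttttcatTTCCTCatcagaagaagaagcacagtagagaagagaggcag
Cyba, chr8:122432891-122433190, minus strand: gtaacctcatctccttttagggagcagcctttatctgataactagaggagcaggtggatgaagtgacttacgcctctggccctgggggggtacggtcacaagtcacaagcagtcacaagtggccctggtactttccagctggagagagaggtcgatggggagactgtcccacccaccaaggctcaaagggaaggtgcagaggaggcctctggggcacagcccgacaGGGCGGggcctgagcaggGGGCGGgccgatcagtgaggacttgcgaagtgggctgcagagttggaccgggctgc
Ncf1, chr5:134229576-134229875, minus strand: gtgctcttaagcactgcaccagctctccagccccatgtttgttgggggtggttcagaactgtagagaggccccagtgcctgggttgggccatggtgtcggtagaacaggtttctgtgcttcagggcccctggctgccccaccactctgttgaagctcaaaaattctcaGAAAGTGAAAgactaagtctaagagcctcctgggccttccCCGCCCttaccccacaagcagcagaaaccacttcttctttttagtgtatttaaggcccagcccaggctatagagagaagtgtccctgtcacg
Sod2, chr17:13007589-13007888, plus strand: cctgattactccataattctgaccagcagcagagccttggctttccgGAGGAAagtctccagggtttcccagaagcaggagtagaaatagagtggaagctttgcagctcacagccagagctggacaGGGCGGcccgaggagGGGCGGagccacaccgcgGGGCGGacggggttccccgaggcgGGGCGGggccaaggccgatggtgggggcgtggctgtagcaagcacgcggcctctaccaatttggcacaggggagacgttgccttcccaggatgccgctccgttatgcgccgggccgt

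The 4 sequences differed in base composition. Cybb had 35.3% G or C and 1 CG pair, and Sod2 had 64.3% and 21 CG pairs, against medians of 52.7% and 7 pairs over 32851 promoters of the same length. Cyba had 60.7% with 9 pairs and Ncf1 had 54% with 3. The interferon-type motif stood 3 times in the Cybb promoter, from 168, 124 and 29 bases before the start, and 1 time in Ncf1, from 82 bases before it. It was in neither Cyba nor Sod2, and 3.44% of all promoters held it. GAGGAA stood 1 time in Cybb, just after the start, and 1 time in Sod2, and 28.3% of promoters held it. GGGCGG stood 4 times in Sod2, 2 times in Cyba and 1 time in Ncf1, with 35.7% of promoters holding it. TGANTCA, the AP-1 motif, stood 1 time in Cybb, with 7.81% of promoters holding it. The NF-κB motif of GGGA, any base and TTTCC, held by 0.411% of promoters, stood in none of the 4. Its looser form of GGG, any 5 bases and CC stood 1 time in Cybb, 5 times in Cyba, 4 times in Ncf1 and 3 times in Sod2, overlapping GGGCGG in places, and was in 50.8% of promoters. The antioxidant response core of TGAC, any 3 bases and GC (12.4% of promoters) and TATAAA (13.6%) stood in none. These are matches of letters and not measured binding.

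The totals of estimated counts were 10.3 to 14.5 M per microglia library and 10.7 to 15.6 M per astrocyte library. Levels are given as CPM, the counts scaled to a common library total. Markers followed the sort labels. The 13 microglia markers summed to 1.88% to 2.45% of counts in microglia and to 0.0273% to 0.0806% in astrocytes, and 12 astrocyte markers summed to 1.95% to 2.57% in astrocytes and to 0.0377% to 0.0811% in microglia. Kpna4 itself was at 67.9, 96.4 and 89.0 CPM in the microglia libraries labelled WT and at 78.6, 68.5 and 59.8 CPM in those labelled KO. In astrocytes it was at 40.1, 51.1 and 57.6 CPM in the libraries labelled WT and at 69.0, 43.8 and 80.2 CPM in those labelled KO. The groups overlapped in both cell types, and since the deleted part is unknown, these values check nothing about the labels. KO below therefore means the libraries labelled KO.

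Of the 7 genes, 6 passed the filter on low counts in every comparison and Nos2 in none. All 6 differed between the cell types, with 5 higher in microglia and Sod2 lower (edgeR's quasi-likelihood test, adjusted p 1.06e-09 to 1.75e-04). No level in one cell type overlapped the other cell type in any of the 6. This is a common outcome between these cell types, since 64.6% of the 17294 genes tested were called, 28.2% higher and 36.4% lower in microglia, and 46.5% did not overlap. The median of the 6 log2 fold changes was 4.04, beside -0.19 over all genes tested. Bulk libraries cannot tell apart fewer expressing cells and less RNA per cell.

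**Figure D1:**
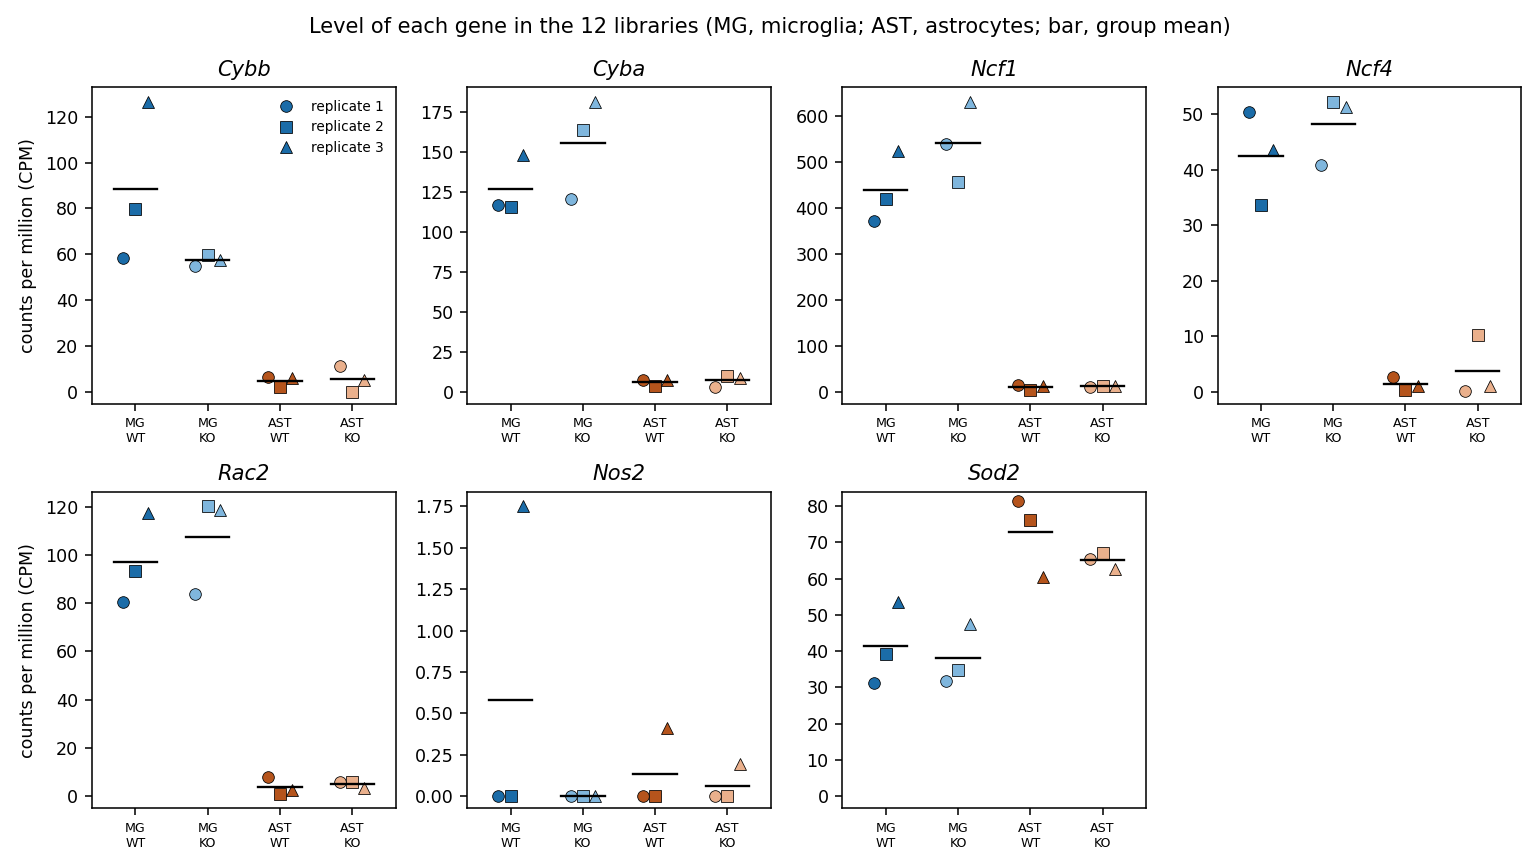
Level of the 7 genes in CPM (y axis, linear, a separate scale per gene) in the 4 groups, with 1 point per library, shaped by replicate number, and a bar at the group mean. The 6 microglia libraries lie above the 6 astrocyte libraries for Cybb, Cyba, Ncf1, Ncf4 and Rac2 and below them for Sod2, and Nos2 is at 0 in 9 libraries.

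Cybb, the catalytic subunit, was at 58.3, 79.9 and 127 CPM in the WT microglia libraries and at 55.0, 59.5 and 57.4 CPM in the KO libraries. In astrocytes it was at 6.26, 1.87 and 5.74 CPM in WT and at 11.2, 0 and 4.94 CPM in KO. The lowest microglia library was thus well above the highest astrocyte library, and the spread among astrocyte libraries was wide, from 0 to 132 counts. The 0 in KO astrocyte replicate 2 allows a level of up to 0.279 CPM, from 3 counts, and such limits cover counting error only. Cybb was 12.1-fold higher in microglia (log2 fold change 3.60, SE 0.56, edgeR adjusted p = 4.83e-05).

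Cyba, its membrane partner, was at 117, 116 and 148 CPM in WT microglia and at 121, 164 and 181 CPM in KO microglia. Astrocyte libraries held 7.19, 3.74 and 7.52 CPM in WT and 2.72, 9.77 and 8.67 CPM in KO. Every microglia library was above every astrocyte library, and Cyba was 17.2-fold higher in microglia (log2 fold change 4.10, SE 0.32, edgeR adjusted p = 3.48e-08). In the GENCODE M21 annotation a gene model on the opposite strand overlaps Cyba, and the labels do not say whether counting used strand.

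Ncf1, the organizer among the cytosolic subunits, had the highest CPM of the 7 genes in microglia, above 99.0% of the 24255 genes with a count there. It was at 372, 418 and 523 CPM in WT microglia and at 538, 456 and 630 CPM in KO microglia. In astrocytes it was at 14.2, 3.90 and 12.5 CPM in WT and at 10.9, 13.1 and 12.97 CPM in KO. This was the widest gap among the 7 genes, 35.6-fold (log2 fold change 5.15, SE 0.28, edgeR adjusted p = 1.06e-09). Gtf2ird2, a gene on the opposite strand that overlaps Ncf1, was at 20.2 to 26.4 CPM in microglia and at 3.81 to 13.7 CPM in astrocytes. Without known strand, reads in the shared bases cannot be told apart.

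Ncf4, the subunit that binds phosphoinositide on the phagosome membrane, was at 50.4, 33.6 and 43.5 CPM in WT microglia and at 40.9, 52.3 and 51.4 CPM in KO microglia. Astrocyte levels were 2.59, 0.325 and 1.03 CPM in WT and 0.170, 10.1 and 0.963 CPM in KO. One astrocyte library, KO replicate 2, held 109 of the counts while the other 5 held 2 to 36 counts each. Ncf4 was 15.7-fold higher in microglia (log2 fold change 3.98, SE 0.71, edgeR adjusted p = 1.75e-04), and the log2 fold change ran from 3.20 to 5.58 over 15 alternative settings, all past the threshold.

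Rac2, the Rac GTPase of hematopoietic cells, was at 80.5, 93.2 and 117 CPM in WT microglia and at 83.8, 120 and 119 CPM in KO microglia. In astrocytes it was at 7.77, 1.06 and 2.39 CPM in WT and at 5.87, 5.77 and 3.21 CPM in KO. Rac2 was 19.3-fold higher in microglia (log2 fold change 4.27, SE 0.38, edgeR adjusted p = 1.80e-07). Its broadly expressed paralog Rac1 was at 246 to 341 CPM in microglia and at 102 to 150 CPM in astrocytes, a 1.87-fold difference (log2 0.90, SE 0.12, edgeR adjusted p = 1.16e-05). Reads that match both paralogs were divided between them by the authors' estimation. In the same annotation as for Cyba, a gene on the opposite strand that is also in the count tables overlaps Rac1. The limit of unknown strand holds for Rac1 too.

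**Figure D2:**
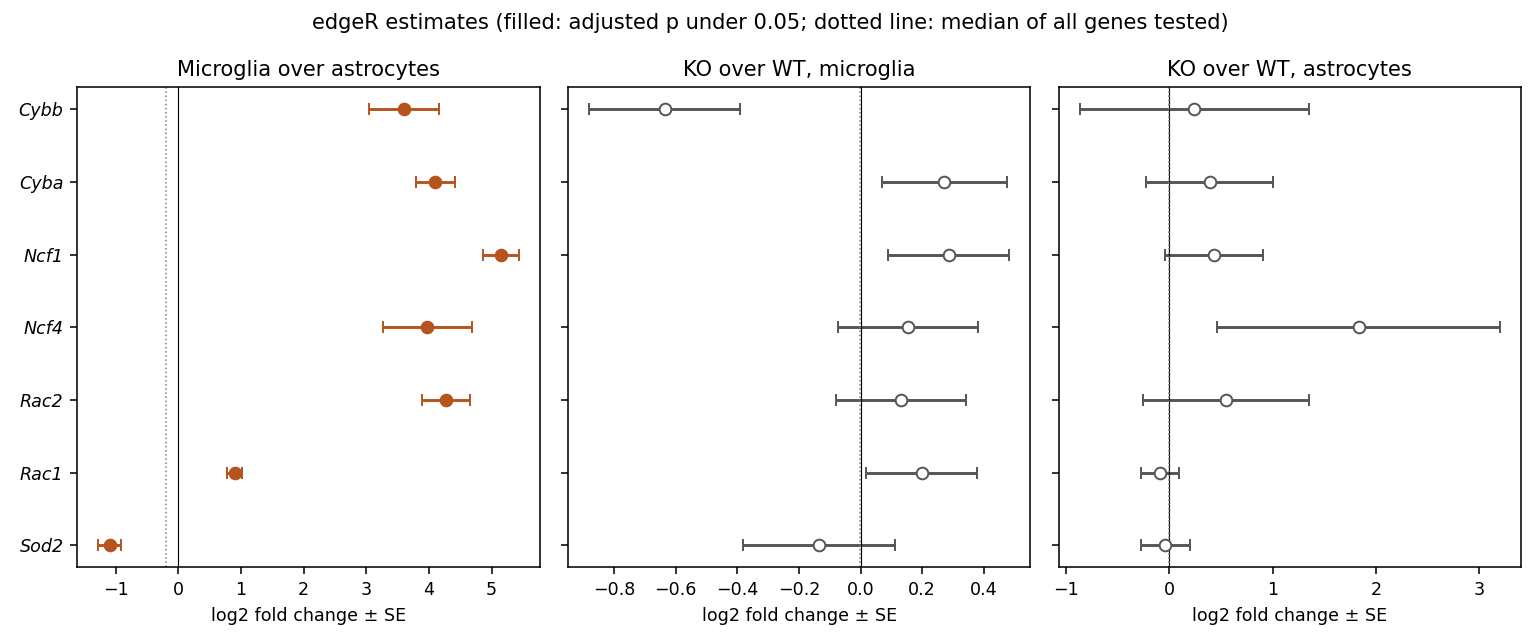
Log2 fold change with SE (x axis, a separate range per panel) from edgeR for 6 of the 7 genes and for Rac1, of microglia over astrocytes and of KO over WT in each cell type. All 7 genes plotted pass the threshold between cell types, from -1.09 for Sod2 to 5.15 for Ncf1, and none passes it between genotypes.

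Sod2 had the opposite order. It was at 31.1, 39.2 and 53.5 CPM in WT microglia and at 31.9, 34.7 and 47.5 CPM in KO microglia. In astrocytes it was at 81.4, 76.2 and 60.5 CPM in WT and at 65.3, 66.9 and 62.7 CPM in KO. The highest microglia library, WT replicate 3, was still below the lowest astrocyte library, that of the same animal. Sod2 was 2.13-fold lower in microglia (log2 fold change -1.09, SE 0.18, edgeR adjusted p = 1.14e-04), which is -0.90 relative to the median of all genes. Over 15 alternative settings its log2 fold change ran from -1.17 to -0.79, with no change of call.

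Nos2 was close to undetected. It had 23 counts (1.75 CPM) in WT microglia replicate 3 and 0 in the other 5 microglia libraries. In astrocytes it had 6 counts (0.410 CPM) in WT replicate 3, 3 counts (0.193 CPM) in KO replicate 3 and 0 in the other 4 libraries. A count of 0 allows a level of up to 0.207 to 0.291 CPM in microglia and up to 0.216 to 0.279 CPM in astrocytes. The 3 libraries with a count all carry replicate number 3, and 2 of them come from 1 animal. No comparison of Nos2 between groups was possible at this depth.

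Levels of different genes were compared per kilobase of the longest protein-coding transcript in GENCODE M21, which understates a gene that mainly uses a shorter transcript. In WT microglia Cyba (170 ± 24.5 CPM per kb, SD, n = 3) and Ncf1 (152 ± 26.8) were highest and overlapped. Rac1 followed at 65.4 ± 6.15 CPM per kb, and then Rac2 (31.9 ± 6.13) and Ncf4 (29.1 ± 5.77), whose ranges overlapped. Cybb was at 18.6 ± 7.34 CPM per kb, below its membrane partner Cyba in every library, and its range reached into that of Ncf4. Sod2 was at 7.04 ± 1.93 CPM per kb and Nos2 at 0.139 ± 0.241. The order of the means in KO microglia was Cyba (209), Ncf1 (188), Rac1 (76.3), Rac2 (35.4), Ncf4 (32.9), Cybb (12.1) and Sod2 (6.49 CPM per kb). In WT astrocytes Rac1 (33.5 ± 3.22 CPM per kb) and Sod2 (12.4 ± 1.85) were highest, Cyba was at 8.27 ± 2.82 and Ncf1 at 3.54 ± 1.91, and Cybb, Ncf4 and Rac2 were at 0.897 to 1.23 CPM per kb.

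The low oxidase levels in astrocyte libraries were set beside those of microglia markers in the same libraries. Per animal, the astrocyte CPM of Ncf1 was 0.934% to 3.81% of its microglia CPM, with a median of 2.23%. The sum of the 13 microglia markers gave 1.46% to 4.12%, with a median of 2.22%. Medians of the other genes were 2.12% for Ncf4, 3.75% for Rac2, 4.94% for Cyba and 6.58% for Cybb. Single markers had medians of 1.51% to 2.44%, except Sall1 at 9.26%. Ncf1 and Ncf4 lay within the range of those 12 markers, and Rac2, Cyba and Cybb lay above all 12 and below Sall1. The animal with the highest marker sum, WT replicate 1, also had the highest percentage for Cyba, Ncf1 and Rac2, and the animal with the lowest, WT replicate 2, had the lowest for Ncf1 and Rac2. The highest values were 20.4% for Cybb in KO replicate 1 and 19.4% for Ncf4 in KO replicate 2, where the marker sums were 2.50% and 2.17%. In these animals Sall1 was at 9.86% and 9.12%. The highest of the other markers were C1qb at 2.84% in KO replicate 1 and Aif1 at 5.39% in KO replicate 2. The highest single marker of any animal was Sall1 in WT replicate 3, at 13.3%. The part of microglia RNA in the astrocyte levels was not tested. Sod2, in contrast, was at 113% to 261% of its microglia level in astrocytes.

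**Figure D3:**
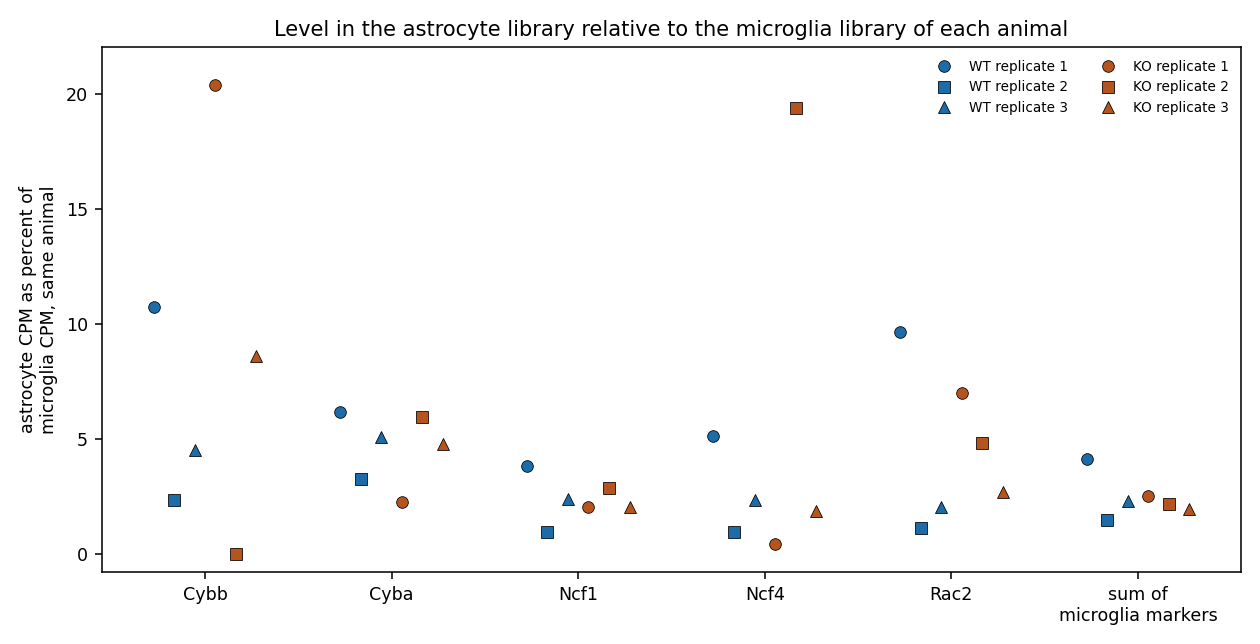
Astrocyte CPM as a percentage of the microglia CPM of the same animal (y axis, linear) for 5 oxidase genes and for the sum of 13 microglia markers, with 1 point per animal, blue for WT and orange for KO. Most points lie between 0% and 10%, beside marker sums of 1.46% to 4.12%. The medians of Cyba (4.94%) and Cybb (6.58%) lie above those sums. The 2 points near 20% are Cybb in KO replicate 1 and Ncf4 in KO replicate 2.

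Between genotypes in microglia, none of the 6 tested genes was called (edgeR, adjusted p 0.616 to 0.932). The WT and KO levels overlapped for each, while 13.1% of all genes tested did not overlap. None of the 14191 genes tested was called either (0% by edgeR), and 7.42% of them had an unadjusted p under 0.05, against 1 of the 6 here. DESeq2 called 41 genes among all tested and none of the 6. Under 14 alternative settings the adjusted p of none of the 6 fell under 0.05.

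The 1 gene with a low unadjusted p was Cybb, whose KO over WT estimate was -0.64 on the log2 scale (SE 0.25), with an edgeR adjusted p of 0.616 and 0.0217 before adjustment. The KO libraries lay close together at 55.0 to 59.5 CPM, and WT replicate 1, at 58.3 CPM, fell within their range. The WT mean of 88.3 ± 34.9 CPM (SD, n = 3) was raised most by replicate 3 at 127 CPM, and replicate 2, at 79.9 CPM, was also above the KO libraries. Without WT replicate 3 the log2 fold change was -0.31, and over the 14 alternatives it ran from -0.86 to -0.31. The unadjusted p was under 0.05 in 10 of the 14, and the adjusted p in none. WT replicate 3 also had the highest level of 7 of the 11 neutrophil markers with a count in microglia. Among them was S100a9, at 15.5 CPM against 1.97 to 5.50 CPM in the other 5 microglia libraries. Ngp, Mmp9, Cxcr2 and Csf3r were highest in other libraries. The sum of all 12 neutrophil markers was 504 CPM in WT replicate 3, against 458 to 521 CPM. Most of each sum came from Csf3r, at 472 CPM in WT replicate 3 and at 455 to 514 CPM over the microglia libraries. Without Csf3r the sum was 32.0 CPM in WT replicate 3, against 2.96 to 14.9 CPM in the other 5 microglia libraries. Border macrophage and monocyte markers summed to 384 CPM in WT replicate 3 against 175 to 360 CPM, with 5 of the 10 highest there. KO replicates 1 and 3 had sums of 360 and 351 CPM, with Cybb at 55.0 and 57.4 CPM. WT replicate 3 had the highest sum of choroid plexus and ependyma markers (2209 against 358 to 1114 CPM), with 1934 CPM from Ttr. Its sums of oligodendrocyte lineage markers (1740 against 280 to 779 CPM), astrocyte markers (811 against 377 to 607 CPM) and endothelial and mural markers (96.9 against 31.0 to 82.0 CPM) were the highest as well. Of the 12 neutrophil markers only Elane, a gene transcribed mainly in neutrophil precursors, was at 0 in all 12 libraries. The part of these cells in the Cybb level, and in the 23 counts of Nos2 in the same library, was not tested.

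For Cyba, Ncf1, Ncf4 and Rac2 the estimates were above 0 and did not pass the test. The log2 fold changes of KO over WT in microglia were 0.27 (SE 0.20) for Cyba, 0.29 (SE 0.20) for Ncf1, 0.15 (SE 0.23) for Ncf4 and 0.13 (SE 0.21) for Rac2. Sod2 was at -0.14 (SE 0.25), and 0.077 without WT replicate 3. These values came with edgeR adjusted p of 0.784 to 0.932. Rac1, at 0.20 (SE 0.18), had its KO libraries (298 to 341 CPM) just above its WT libraries (246 to 297 CPM), as did 6.53% of all genes tested, and was not called. The summed level of 8 neuron markers was 13.6 to 21.1 CPM in KO and 27.8 to 38.9 CPM in WT microglia. This gap rested on Meg3, singled out after its values were seen (4.43 to 4.94 against 15.3 to 19.6 CPM), and without it the sums of the other 7 were 9.12 to 16.3 CPM in KO and 12.5 to 19.3 CPM in WT, which overlap. The sum of 12 astrocyte markers was 395 to 428 CPM in KO and 377 to 811 CPM in WT. The part of such cells in these differences was not tested.

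Between genotypes in astrocytes the levels of the oxidase genes were too low and uneven for a precise estimate. None of the 6 genes was called (edgeR adjusted p = 0.999 for each), nor was any of the 15755 genes tested (0%), while 2.37% had an unadjusted p under 0.05 and none of the 6 did. The log2 fold changes of KO over WT were 0.24 (SE 1.11) for Cybb, 0.39 (SE 0.61) for Cyba, 0.43 (SE 0.48) for Ncf1, 1.83 (SE 1.37) for Ncf4 and 0.55 (SE 0.80) for Rac2. The value for Ncf4 rested on KO replicate 2 and was -1.18 without it. Sod2 was measured more precisely, with a log2 fold change of -0.038 (SE 0.23) from 719 to 1131 counts per library.

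The genotype effect was not shown to differ between the cell types for any of the 6 genes. The difference of the effects, astrocytes minus microglia, was 0.97 on the log2 scale for Cybb, 0.20 for Cyba, 0.23 for Ncf1, 1.75 for Ncf4, 0.49 for Rac2 and 0.19 for Sod2, with edgeR adjusted p of 0.913 to 1.00. Its median over all 17294 genes was 0.16, none was called (0% by edgeR, and 54 genes by DESeq2), and 6.37% had an unadjusted p under 0.05, against none of the 6.

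The other genes of the oxidase and of oxidant handling were taken as lists. The counts of higher and lower genes below stand beside 28.2% called higher and 36.4% called lower in microglia over all 17294 genes tested. Of 5 oxidase partners (Rac1, Rap1a, Rap1b, Cybc1 and Hvcn1), all 5 were higher in microglia and the median log2 difference was 2.50. The largest difference was that of Hvcn1, the proton channel that balances the charge of the electrons moved, at 87.5 to 135 CPM in microglia and 0 to 4.76 CPM in astrocytes (log2 fold change 5.82, SE 0.57). Cybc1, a chaperone of the membrane subunits, was at 91.0 to 141 CPM in microglia and at 11.2 to 23.9 CPM in astrocytes. Of 14 genes that act in activating the oxidase, 12 were higher in microglia and 2 lower. The 2 highest were Pik3cg (5.51, SE 0.35) and Pik3r5 (5.33, SE 0.53), which encode a phosphoinositide kinase and its adaptor, and Vav3 (-2.83, SE 0.26), an exchange factor for Rac, was the lowest. Prkca (-0.39, SE 0.15, edgeR adjusted p = 0.0387) was the other lower gene and lost the call under 9 of 15 alternatives (adjusted p 0.0189 to 0.652), among them the animal as a replicate block (adjusted p = 0.0776).

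Of 9 other NADPH oxidases and their helpers, 2 passed the filter. Nox4, a constitutively active oxidase, had no count in any of the 6 microglia libraries and 14 to 20 counts in WT astrocytes (1.01 to 1.37 CPM), with 0 to 11 counts in KO astrocytes. The astrocyte mean of 0.784 CPM was 19.4-fold above the limit of 3 counts over all microglia libraries. This ratio leaves out the spread among astrocyte libraries, where KO averaged 0.397 CPM and 1 library had no count. Of the 9 transcription factors examined, all were higher in microglia, with a median of 3.35, led by Spi1, which encodes PU.1 (5.38, SE 0.27), and Irf8 (5.32, SE 0.32). This list was chosen as factors known to act on such genes, and no binding was measured.

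Of 18 genes that remove superoxide and peroxide, 3 were higher in microglia, 11 lower and 4 not called, and the median log2 difference was -1.36. Sod1, the cytosolic dismutase, was lower like Sod2 (16.6 to 41.4 CPM in microglia, 45.0 to 112 CPM in astrocytes), and so was Sod3, the secreted one, with a log2 fold change of -4.87 (SE 0.31). Prdx6, a peroxiredoxin, was at 11.5 to 21.3 CPM in microglia and at 308 to 435 CPM in astrocytes (-4.74, SE 0.20). Gpx1, a glutathione peroxidase, went the other way, with 164 to 213 CPM in microglia and 11.9 to 58.2 CPM in astrocytes (2.60, SE 0.34). Txnrd2, the other of the 2 highest, was at 1.69 (SE 0.69, edgeR adjusted p = 0.0426) and kept the call under 9 of 15 alternatives (adjusted p 0.00141 to 0.347).

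Of 11 genes around the antioxidant regulator Nrf2, 4 were higher in microglia, 4 lower and 3 not called. The heme oxygenase gene Hmox1 (2.76, SE 0.32) and the repressor gene Bach1 (3.42, SE 0.20) were highest, and the cystine transporter gene Slc7a11 (-4.95, SE 0.24) and Nqo1 (-3.75, SE 0.61) lowest. Of 13 genes that supply NADPH, 5 were higher, 5 lower and 3 not called, with Pgd (2.49, SE 0.15) and H6pd (2.68, SE 0.22) of the pentose phosphate reactions at one end and Me1 (-4.46, SE 0.39) and Nadk2 (-3.06, SE 0.17) at the other. Of the 13 genes of nitric oxide and arginine metabolism that passed the filter, 3 were higher, 6 lower and 4 not called. Gch1, the first enzyme of the synthesis of the cofactor of nitric oxide synthases, was higher in microglia (4.12, SE 0.87) and lost the call under 1 of 15 alternatives, in KO animals alone (adjusted p 3.77e-07 to 0.130 over all 15). Arg1, which consumes arginine, was also called higher (edgeR adjusted p = 0.0189), and under 10 of 12 alternatives (adjusted p 0.0162 to 0.0621), from 0 to 31 counts per microglia library and 0 to 6 per astrocyte library. Ddah1 (-5.51, SE 0.28) and the arginine transporter gene Slc7a2 (-5.96, SE 0.38) were lower. Of 10 other oxidant enzymes tested, 5 were higher, led by Alox5 (5.66, SE 0.61) and Alox5ap (5.07, SE 0.59) of leukotriene synthesis, 4 lower, led by Pxdn (-5.89, SE 0.39) and Aox1 (-4.79, SE 0.52), and 1 not called.

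**Figure D4:**
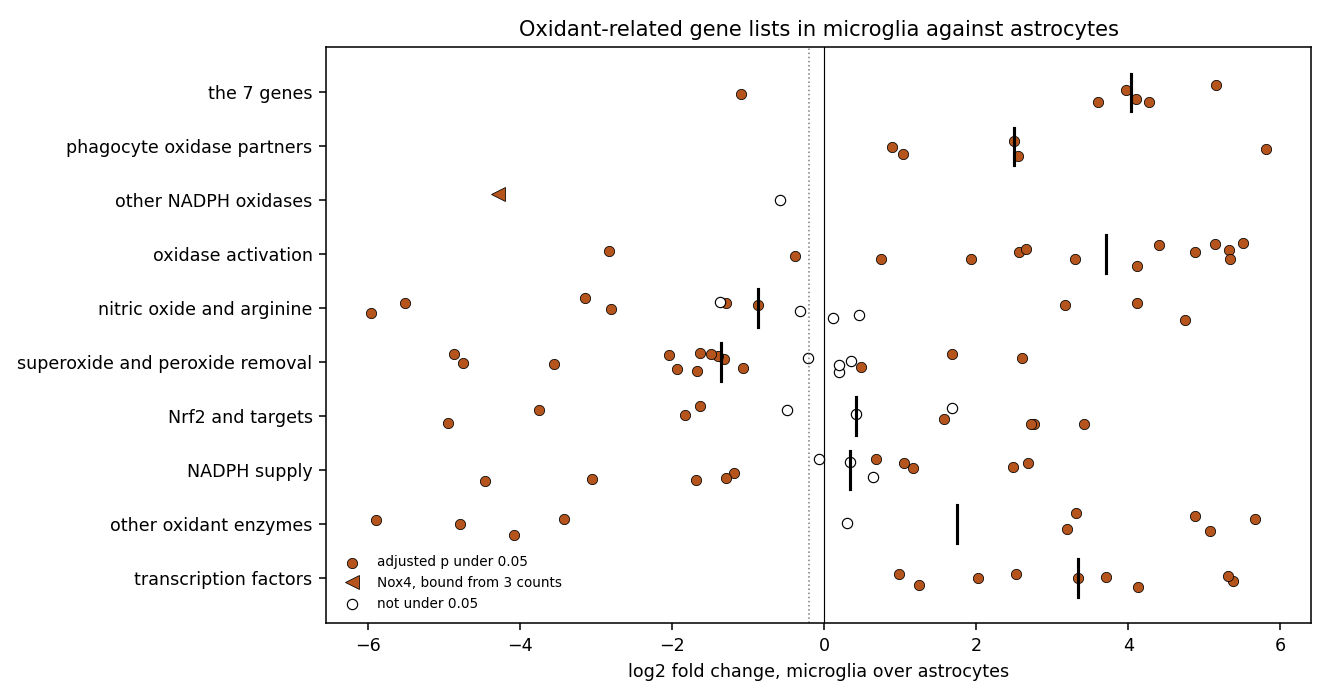
Log2 fold change of microglia over astrocytes (x axis) for each tested gene of the 7 genes and of 9 lists (rows, points spread vertically for legibility), filled where the edgeR adjusted p is under 0.05, with a bar at the list's median and a triangle for the bound of Nox4. The oxidase partners and the transcription factors lie entirely above 0, and most genes of superoxide and peroxide removal lie below it.

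No gene of these lists was called between genotypes in either cell type. In microglia those with an unadjusted p under 0.05 were Rap1b (0.53, SE 0.23), Alox5ap (0.57, SE 0.20), Nnt (-0.46, SE 0.20) and Sod3 (-2.47, SE 0.60, edgeR adjusted p = 0.439). Sod3 was called under 3 of 14 alternatives, DESeq2, no filter and the fit of both cell types together, with adjusted p from 0.0222 to 0.938 over all 14. Sod3 was at 5.58, 8.25 and 14.1 CPM in WT and at 0.872, 1.25 and 2.89 CPM in KO microglia, against 80.9 to 109 CPM in astrocytes. The sum of choroid plexus and ependyma markers had the library order of Sod3 within each genotype in microglia. The part of other cell types in the Sod3 difference was not tested. The choroid plexus and ependyma sums were 885, 1114 and 2209 CPM in WT and 358, 551 and 898 CPM in KO. Ttr alone gave 784, 987 and 1934 CPM in WT and 327, 502 and 795 CPM in KO. Of the 6 markers 5 had lower estimates in KO, 3 of them at an unadjusted edgeR p under 0.05, and 1 had a higher one. In each genotype replicate 3 was the highest for both this sum and Sod3. All 12 astrocyte markers had lower estimates in KO, 6 of them at an unadjusted p under 0.05, as had all 9 endothelial and mural markers tested, 2 of them at that level. No marker sum of these lists kept the order of Sod3 over all microglia libraries. For choroid plexus and ependyma markers WT replicate 1, at 885 CPM, was below KO replicate 3, at 898 CPM. WT replicate 2 was at 377 CPM for astrocyte markers, against 395 to 428 CPM in KO. For endothelial and mural markers it was at 40.0 CPM, against 31.0 to 43.1 CPM in KO. None of these markers was called (edgeR, lowest adjusted p 0.394). In astrocytes those with an unadjusted p under 0.05 were Syk (1.25, SE 0.43), Prdx6 (0.47, SE 0.20), Gclm (0.65, SE 0.25) and Nfe2l2 (0.56, SE 0.23), each with an edgeR adjusted p of 0.999.

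For each tested gene of the 7, the genes with the most similar profile over the 12 libraries were found. The measure was the root mean square difference of log2 CPM, centred on each gene's mean. Genes with symbols of Gm and digits, or ending in Rik, were left out of the ranking. Ncf1 was nearest to Mpeg1 (0.244) and C3ar1 (0.247), Cyba to Rps6ka1 (0.274) and Il16 (0.314), and Rac2 to Casp1 (0.311) and Cd68 (0.384). Cybb (Mob3c at 0.468, Rftn1 at 0.522) and Ncf4 (Grap at 0.524, Ier3 at 0.629) had none as near among the genes ranked. Sod2 was nearest to Fnbp1l (0.180) and Dhcr7 (0.183). The 12 libraries come from 6 animals and 2 cell types, and the likeness includes the difference between the cell types.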

How the data were processed

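Per the labels' protocols, full-length cDNA was amplified from sorted cells without molecular identifiers. The authors deposited estimated counts per gene symbol, 1 table per cell type. Per the submitters' processing notes STAR 2.7.10b, RSEM 1.3.3, limma and build GRCm39 were used. The values are not normalized, and 3.44% to 5.27% of the values above 0 were fractional (tolerance 0.001). They were rounded before CPM and tests. All columns were matched to a library by name. Library pairs within a group differed by more than sampling noise (chi-square per degree of freedom 29.8 to 117), so none was taken for a repeat. P-values between genotypes within a cell type measure the spread between animals. The main fit of all 12 libraries had no term for the animal, so its p-values take both libraries of an animal as independent.

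Genes were tested by edgeR's quasi-likelihood method (version 4.0.16, R 4.3.3) with TMM, filterByExpr at a minimum count of 10 and Benjamini-Hochberg adjustment over all genes, called under 0.05. Genotypes were compared within the 6 libraries of a cell type. The cell types, and the difference of the genotype effects, were compared in 1 fit of all 12 libraries. The script was tested on simulated data. The microglia and astrocyte libraries of an animal are paired by the labels, and their deviations from group means correlated at 0.0041 to 0.0962. With the animal as a replicate block, 10802 genes were called between cell types, and none of the calls for the 6 tested genes changed. The alternatives were DESeq2 1.42.0, its size factors in edgeR, limma voom (3.58.1) with quality weights, no filter, a minimum count of 50, leaving out 8 abundant non-coding transcripts, each replicate left out, a block for the replicate number or the animal, 1 fit of both cell types, and the cell types within 1 genotype alone.

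The 7 genes, the lists and the markers were chosen with earlier results of these data known. Genes named beyond the 7, Kpna4 and Rac1 were per list the 2 highest and 2 lowest called between cell types, up to 2 with the smallest unadjusted p between genotypes, and the 2 nearest profiles. Sod1, Gtf2ird2 and the other partners were named after their values were seen. One gene of the lists is not reported here.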

Additional observations from a re-analysis of the deposited data

How the results depend on the processing

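Between cell types, the 6 tested genes kept direction and call under all 15 alternatives, and Kpna4, not called at 0.16, was called without KO replicate 3 (0.51, adjusted p = 0.0313, and up to 0.619 elsewhere) and turned to -0.20 in KO animals alone. In the genotype comparisons no alternative called any of the 6, but several directions turned. In microglia Sod2 ran from -0.30 to 0.077 with single replicates left out. In astrocytes the values with single replicates left out ran from -0.84 to 0.80 for Cybb, -0.095 to 0.80 for Cyba, -1.18 to 2.81 for Ncf4 and -0.20 to 0.053 for Sod2, and voom gave -0.19 for Cybb, -0.17 for Cyba and -0.65 for Ncf4. For the difference of the effects they ran from -0.19 to 1.45 for Cybb, -0.33 to 0.34 for Cyba, -0.31 to 0.62 for Ncf1, -1.24 to 2.50 for Ncf4, -0.10 to 1.69 for Rac2 and -0.19 to 0.40 for Sod2, and voom gave -0.36 for Cyba and -0.70 for Ncf4. Counts of called genes over the whole table, 0 by edgeR, moved with the tool and filter: DESeq2 gave 41 in microglia, 4 in astrocytes and 54 for the difference, and no filter gave 121, 17 and 160. The fit of both cell types together gave 41 in microglia. Leaving out replicates gave 0 to 2, 0 to 1 and 0 to 6. Replicate numbers are not stated to pair WT with KO animals. Same-numbered deviations correlated at 0.0513 to 0.194 in microglia, where each library correlated best with its own number, and at -0.0222 to 0.231 in astrocytes, where not every library did. With the number as a replicate block, 30 genes were called in microglia, none of them among the 6, and in astrocytes Cybb was -0.71. The cause of these changes was not tested. Nos2 had 0 to 23 counts per library, which allowed no test, and the oxidase genes in astrocytes had 0 to 202 counts, with a spread between libraries that gave SEs of 0.48 to 1.37.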
